A study of Mus with 5 samples.

Results

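The chemokine genes Ccl1, Ccl3, Ccl4, Ccl5, Ccl9 and Xcl1 were examined for binding of RARα, the nuclear receptor for retinoic acid (RA), and of BATF, a transcription factor of the AP-1 family, in mouse CD8 T cells. Binding had been measured by ChIP-seq, in which an antibody recovers the DNA fragments a protein is bound to and the places where fragments pile up are called as peaks. A peak was counted for a member gene when the authors' annotation named that gene for it. By this rule 13 peaks of 27480 in the 4 lists belonged to the 6 genes, with 7 of 15812 in the BATF control list, 5 of 9899 in the BATF list with RA, 1 of 1172 in the RARα control list and 0 of 597 in the RARα list with RA. These peaks fell on 8 distinct sites, since overlapping peaks of different lists were taken as 1 site and a peak can name several genes.

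All groups were wild-type CD8 T cells isolated as naive cells from spleen, stimulated through CD3 and CD28 in the presence of IL-2 (24 h), rested in 100 U/ml IL-2 (24 h), and given 50 nM RA, or no RA as the control, during a last 1 h. The treatment field of the labels names other interleukins than the protocol does, and the labels give no age and no number of animals. Each list had been called on 2 pooled ChIP files of 1 antibody and condition against the same normal rabbit IgG file. Neither the labels nor the methods say whether the pooled files are separate cultures, so there is 1 list per condition, no replicate spread and no test between conditions. The pools held 22655611 (RARα control), 22475060 (RARα with RA), 23110180 (BATF control) and 16424269 (BATF with RA) fragments, so the BATF pool with RA had 71.1% of the depth of its control. Peak lists hold no expression, so the labelled cell type could not be checked against its marker genes.

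Chemokines are small secreted proteins that direct the movement of leukocytes through receptors on the responding cell. Activated CD8 T cells are a major source of CCL3, CCL4 and CCL5, which attract myeloid cells, NK cells and other T cells, and of XCL1, which attracts cross-presenting dendritic cells through XCR1. CCL1 is made by activated T cells and acts on CCR8, and CCL9 acts on CCR1. BATF pairs with JUN proteins and binds AP-1 sites, often beside IRF4, and is required for effector differentiation of CD8 T cells. RARα binds DNA with RXR also without ligand, and RA changes its cofactors.

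BATF peaks were assigned to every member gene in both conditions. In the control, Ccl9 had 4 peaks, Ccl5 had 3, Ccl3 and Xcl1 had 2 each, and Ccl1 and Ccl4 had 1 each. With RA, Ccl5 and Ccl9 had 2 each, and Ccl1, Ccl3, Ccl4 and Xcl1 had 1 each. Over all 21900 protein-coding genes of the gene table, 46.2% were named by a BATF control peak and 36.4% by a BATF peak with RA, against 6 of 6 members in each list. The 6 genes are not independent, because 4 of them lie in the same stretch of chromosome 11 and share peaks. They were also chosen with earlier results of these data known, so 6 of 6 is no measure of enrichment at chemokine genes. Of 32 further chemokine genes, 8 were named by a BATF control peak and 6 by one with RA.

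Almost all of this binding lay outside protein-coding genes. Of the 13 peaks, 12 were classed as intergenic and 1 as promoter. All 7 BATF control peaks were intergenic (Wilson 95% confidence interval 64.6% to 100%, which covers counting error only), whereas 18.1% of all BATF control peaks were. Selection by gene name favours this class, since 77.3% of intergenic BATF control peaks named several genes, against 25.5% of all. The 7 peaks also lie close together in part, while the interval treats them as independent. The contrast is thus no measure of a trait of these genes. With RA, 4 of 5 were intergenic, beside 16.2% of all peaks of that list. The single RARα peak was intergenic as well, as were 43.8% of all RARα control peaks. Genes were also assigned by distance, with a peak within 10 kb of the gene body. In the control 1 of 6 members (Ccl5) had a BATF peak (16.7%, Wilson interval 3.01% to 56.4%), compared with 48.5% of all protein-coding genes. With RA 2 members did, Ccl4 and Ccl5 (33.3%, 9.68% to 70.0%), compared with 38.6%. Both intervals include the share of all genes. A window around the gene body also favours long genes, and gene length was not matched. The nearest BATF control peak lay 3605 bp from Ccl5, 10766 bp from Ccl3, 11547 bp from Ccl4, 15241 bp from Ccl1, 21933 bp from Ccl9 and 23818 bp from Xcl1. The value for Ccl4 is short because the gene's span includes a predicted transcript that reaches into Ccl3. From the peak with RA classed as the Ccl4 promoter, the nearest BATF control peak was 25039 bp away. Without RA, Ccl5 was thus the member with the closest BATF peak, and the peaks of Ccl1, Ccl9 and Xcl1 were distal in both conditions.

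Ccl5, Ccl9, Ccl3 and Ccl4 lie in this order on chromosome 11 of mm10. Ccl5 (RANTES) spans chr11:83525778-83530518, Ccl9 chr11:83572917-83578636, Ccl3 (MIP-1α) chr11:83647843-83649378 and Ccl4 (MIP-1β) chr11:83648624-83664683. The span of Ccl4 includes a predicted transcript that reaches into Ccl3. Between the ends of this stretch the 4 lists held peaks at 5 places, 3 of them between Ccl5 and Ccl9.

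**Figure D1:**
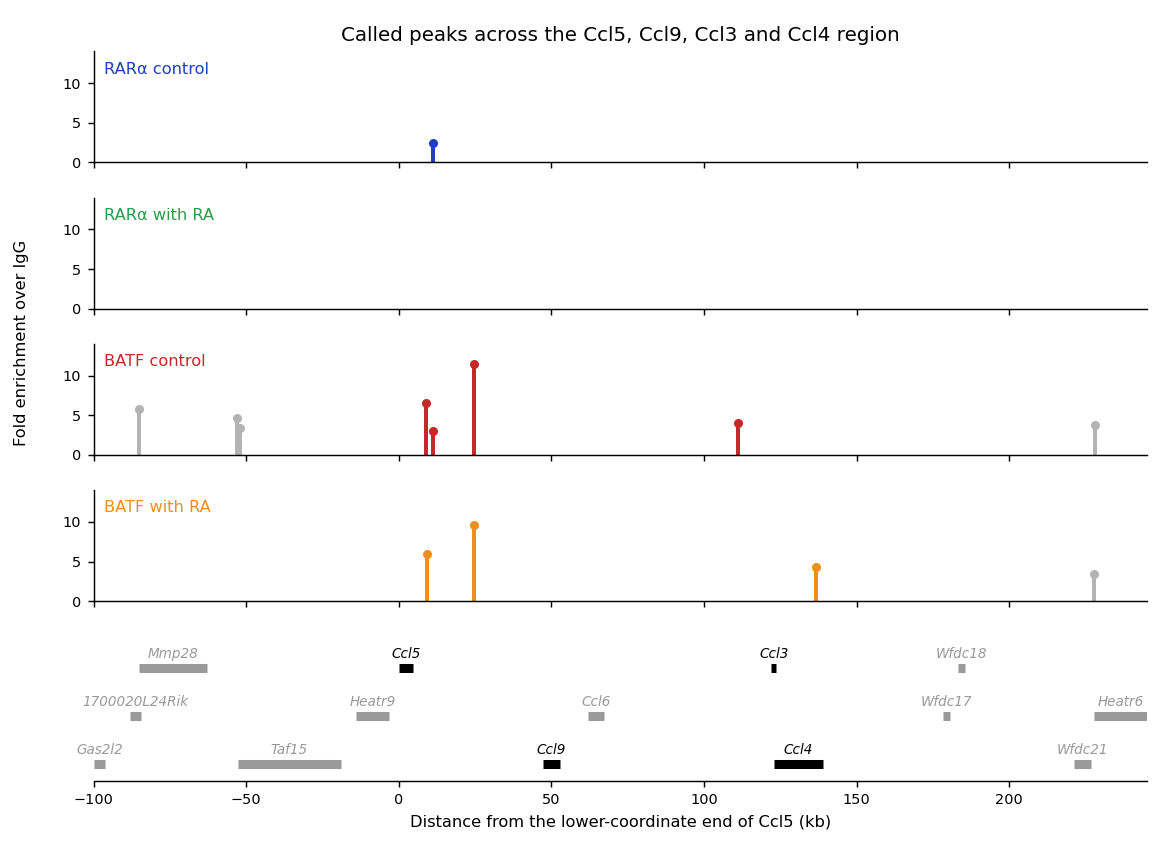
Peaks of the 4 lists across the Ccl5 to Ccl4 region, with the distance in kb from the lower-coordinate end of Ccl5 on the x axis and the deposited fold enrichment over IgG as the height of each line. Coloured peaks name a member gene, grey peaks do not, and bars at the bottom are protein-coding genes with the members in black. The highest peak in both BATF lists, with folds of 11.5 and 9.62, lies between Ccl5 and Ccl9, the RARα list with RA is empty, and the BATF peak at Ccl4 is in the RA list.

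The strongest BATF site of the 6 genes lay between Ccl5 and Ccl9. In the control the peak at chr11:83549992-83550984 had 104 fragments at its summit (pileup) and a fold enrichment over IgG of 11.5, with a -log10 p of 74.4. With RA the peak at chr11:83550057-83550486 had 64 fragments and a fold of 9.62. The summits were 2 bp apart, and the RA peak had 0.433 times the length of the control peak. Of all BATF control peaks, 92.5% had a lower fold and 97.8% a lower pileup, and with RA 89.5% and 96.4% did. The site is 19474 bp from Ccl5 and 21933 bp from Ccl9, and the annotation also named Ccl3, which is 96859 bp away. The control peak was annotated within an L1MEa repeat of the LINE class. The IgG level recovered from the fold was 2.74 times its background at the control summit and 2.84 times at the RA summit. Of the BATF control peaks, 88.6% had a lower one than the control peak here.

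The per-million pileup, the fragments at the summit scaled to the depth of the pool, was 4.50 in the control (exact Poisson 95% interval 3.68 to 5.45) and 3.90 with RA (3.00 to 4.98). The intervals overlapped. They cover counting error alone, and a summit is the highest point of a peak, so its count is biased upward in both pools. The ratio of the folds, RA over control, was 0.835, close to the median of 0.827 over the 8605 overlapping BATF pairs (quartiles 0.682 and 0.996).

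A weaker BATF site lay beside Ccl5, the gene for a chemokine that effector and memory CD8 T cells produce. In the control the peak at chr11:83534123-83535408 had 39 fragments and a fold of 6.59. With RA the peak at chr11:83534484-83535405 had 18 fragments and a fold of 6.01. It was 3605 bp from the gene in the control and 3966 bp with RA. The measures of change did not give the same size. The fold was 0.913 times the control value. The per-million pileup was 0.649 times, at 1.69 (1.20 to 2.31) in the control and 1.10 (0.650 to 1.73) with RA. Without the constant that the peak caller adds, the ratio of pileup to IgG level was 1.08 times the control value, so the direction depends on the measure. In the same IgG file, the level was 1.71 times its background at the control summit and 1.06 times at the RA summit, 188 bp apart. These are low levels, 5.00 and 2.16 on the pileup scale of each pool, with counting error that no interval here covers.

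RARα and BATF peaks overlapped at a single site of the 6 genes, also beside Ccl5. The RARα control peak at chr11:83536675-83537183, 6157 bp from Ccl5, had 29 fragments, a fold of 2.52 and a -log10 p of 5.83. Within it lay the BATF control peak at chr11:83536883-83537175, with 32 fragments, a fold of 2.96 and a -log10 p of 7.61. The summits were at 83537089 and 83537114. Neither the RARα list nor the BATF list with RA had a peak overlapping this site, and the nearest BATF peak with RA was 1478 bp from the BATF control peak. In the BATF pool with RA, 21 fragments, a per-million pileup of 1.28, would have reached its cutoff, which lies within the interval of the control value of 1.38 (0.947 to 1.95). Both folds were low for their lists. Of all RARα control peaks 8.62% had a lower fold, and of all BATF control peaks 2.32% did.

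The IgG level at this Ccl5 site was high in both lists. It was 3.84 times its background for the RARα control peak, higher than at 99.0% of the peaks of that list, and 3.43 times for the BATF control peak, higher than at 95.3%. The pileup of the RARα peak was by contrast above that of 90.4% of its list. The part of the raised IgG level in these calls was not tested. Of the 2 members the RARα peak names, Ccl5 and Ccl9, the second is 35734 bp away. Over all protein-coding genes 6.85% were named by a RARα control peak, and 3.99% had one within 10 kb of the gene body, as Ccl5 did.

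The RARα list with RA held no peak for any member, and 3.05% of all protein-coding genes had one. The nearest peak of that list lay 989287 bp from the closest member site. The RARα RA pool had 99.2% of the depth of its control. At the IgG level of the Ccl5 site, rescaled to that pool, 22 fragments would have reached the cutoff of p = 0.001, compared with 29 observed in the control pool (exact Poisson interval 19.4 to 41.6). The interval includes 22. The control signal scaled to the RA pool would be 28.8 fragments with a -log10 p of 5.45, against a cutoff of 3. At nearly equal depth this restates the control call and does not bear on binding with RA. The fragments at this site in the RA pool are not known, since the lists hold called peaks only. A peak also had to hold the cutoff over a minimum length, which this number leaves out.

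Elsewhere at the members RARα was not called where BATF was. Of the 7 BATF control peaks, 2 (28.6%, Wilson interval 8.22% to 64.1%) had a RARα control peak within 5 kb, the distance the study uses for overlap, and both were next to the same RARα peak at Ccl5. Over all BATF control peaks the share was 7.16%. At the site between Ccl5 and Ccl9, where BATF had 104 fragments, 18 RARα fragments at the summit would have reached the RARα cutoff in either pool. At the sites of Ccl1 and Xcl1 between 11 and 13 would have, and at the promoter of Ccl4 9 would have.

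Ccl3 and Ccl4, which encode the inflammatory chemokines MIP-1α and MIP-1β, had their closest BATF peaks at different places in the 2 conditions. The control peak at chr11:83636750-83637077 had 23 fragments and a fold of 4.09, and named Ccl3, Ccl4 and Ccl9. It lay 10766 bp from Ccl3, in the interval between Ccl6 and Ccl3, and no BATF peak with RA came closer than 25039 bp to it. The RA peak at chr11:83662116-83662501 had 12 fragments and a fold of 4.30, was classed as the promoter of Ccl4 and named no other gene. The control list had no peak there, its nearest peak being the one just described. This was the only promoter peak of the 6 genes.

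Of these sites, the Ccl4 promoter was near the lower end of its list. Its 12 fragments compare with a minimum of 10 in the whole BATF list with RA, and 1.18% of its peaks had a lower pileup. The per-million pileup was 0.731 (0.378 to 1.28). In the control pool, at the same relative IgG level, 13 fragments or 0.563 on the same scale would have reached the BATF cutoff. The interval includes this limit. The RA signal scaled to the deeper control pool would be 16.9 fragments with a -log10 p of 8.06, against a cutoff of 5. A called peak scaled to a deeper pool was bound to pass the same cutoff. This value therefore does not bear on BATF binding there in the control. The IgG level recovered from the fold at the Ccl4 promoter was 0.998 times its background, so it gives no reading apart from that background. For the Ccl3 site, with a per-million pileup of 0.995 in the control (0.631 to 1.49), the limit in the RA pool was 14 fragments or 0.852, again within the interval. Its 23 fragments were above the minimum of 13 in the control list, and 22.1% of that list had a lower pileup.

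**Figure D2:**
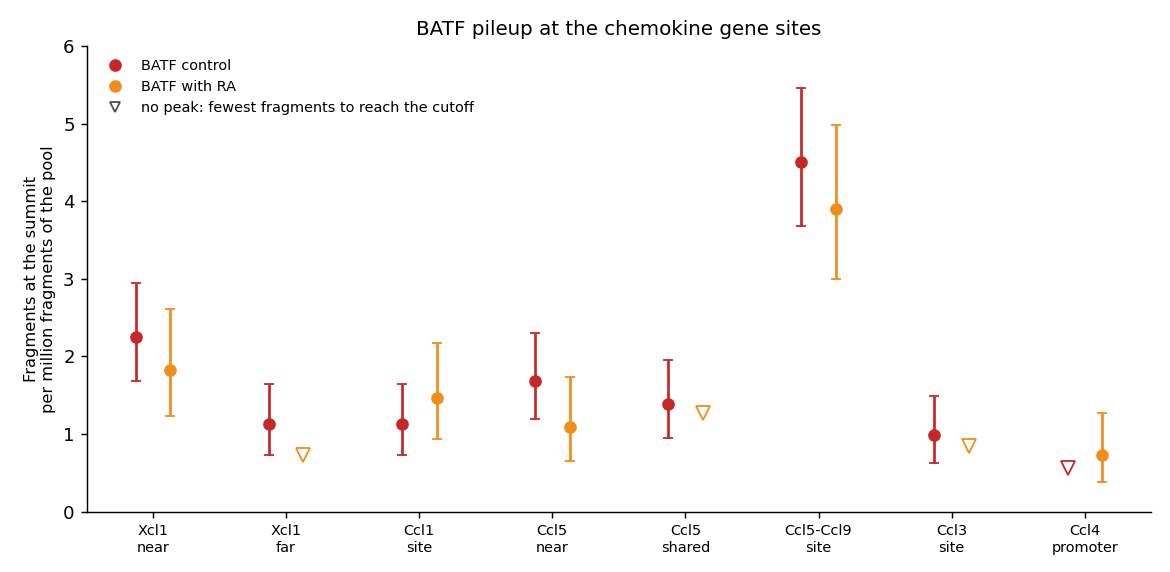
Per-million BATF pileup, the fragments at the summit scaled to the depth of the pool (y axis), at each of the 8 sites (x axis), with red for the control and orange for RA. Bars are exact Poisson 95% intervals for counting error, and open triangles mark, for a list without a peak at the site, the lowest per-million pileup that would have reached the cutoff. The Ccl5-Ccl9 site stands above the others at 4.50 and 3.90, and at each of the 4 sites with both peaks the intervals overlap.

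Xcl1, which encodes lymphotactin, lies on chromosome 1 at chr1:164931644-164935522. Its 2 BATF control peaks lay 23818 bp and 28056 bp from the gene. The nearer, at chr1:164959340-164960426, had a fold of 8.67 from 52 fragments, above 83.9% of the control list. With RA the peak at chr1:164959790-164960304 had 30 fragments and a fold of 5.13, above 46.8% of its list. The ratio of the folds was 0.592, and 12.5% of all overlapping BATF pairs had a lower one. The per-million pileup was 2.25 (1.68 to 2.95) in the control, against 1.83 (1.23 to 2.61) after RA, a smaller change than in the fold and within overlapping intervals. Relative to its background the IgG level was 1.73 at the control summit and 2.48 at the RA summit, 188 bp apart in the same IgG file. Both are low levels, 5.04 on the pileup scale of each pool, with counting error that no interval here covers. The part of the IgG level in the lower fold was not tested. The gene table places a long noncoding RNA gene, Gm39692, across this site, which the deposited annotation classed as intergenic.

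The farther Xcl1 peak, at chr1:164963578-164963989, had 26 fragments and a fold of 5.77 in the control and no overlapping peak with RA. At the RA depth 12 fragments would have reached the cutoff, a per-million pileup of 0.731, against 1.13 observed in the control (0.735 to 1.65). The limit lies just below this interval. No RARα peak of either list lay within 822380 bp of the Xcl1 sites.

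Ccl1, whose product TCA-3 is released by activated T cells, lies at chr11:82176666-82179812, apart from the other chromosome 11 members. It had 1 BATF site in both conditions, 15241 bp from the gene on the side away from Ccl8 and Ccl12. The control peak at chr11:82195053-82195299 had 26 fragments and a fold of 5.34. The RA peak at chr11:82195054-82195299 had 24 fragments and a fold of 7.91. Ccl1 was the only member whose fold was higher with RA at an overlapping pair. The ratio was 1.48, and 97.5% of all overlapping BATF pairs had a lower ratio. The per-million pileup was 1.13 (0.735 to 1.65) without RA and 1.46 (0.936 to 2.17) with it, so the intervals overlapped. The IgG level was 1.37 times its background at the control summit and 1.06 times at the RA summit, where the fold was higher. The recovered levels were low, at 4.00 and 2.16 on the pileup scale of each pool. No interval here covers their counting error. Both were read from the same IgG file, at summits 60 bp apart, and the part of the IgG level in the difference was not tested. The same peak was also named for Ccl8 and Ccl12, which are 78254 bp and 91654 bp away.

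**Figure D3:**
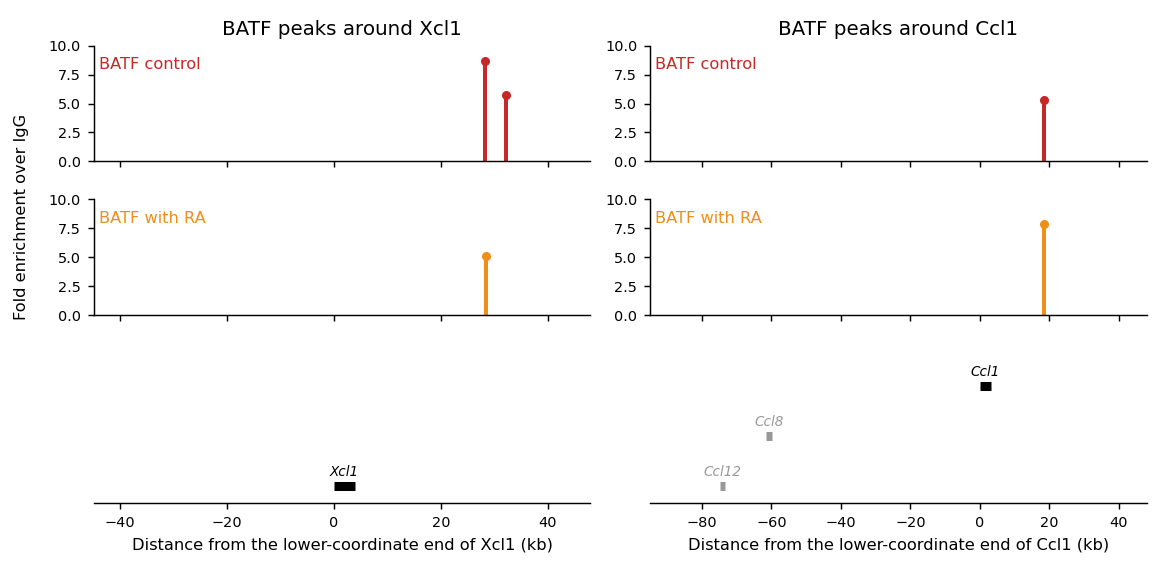
BATF peaks around Xcl1 (left) and Ccl1 (right), with the distance in kb from the lower-coordinate end of the gene on the x axis and the fold enrichment over IgG on the y axis, and genes as bars below. The nearer Xcl1 peak had folds of 8.67 (control) and 5.13 (RA), the farther one appears in the control alone, and the Ccl1 peak had 5.34 and 7.91.

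Across the members, 4 of the 7 BATF control peaks overlapped a BATF peak with RA (57.1%, Wilson interval 25.0% to 84.2%), beside 54.4% of all BATF control peaks. Within 5 kb the count was 6 (85.7%, 48.7% to 97.4%), beside 69.9%, because the farther Xcl1 peak and the Ccl5 peak shared with RARα lay near the RA peak of another site. Of the 5 peaks with RA, 4 overlapped a control peak, beside 93.6% of that list. At the 4 overlapping pairs the fold was lower with RA at 3 (Xcl1, Ccl5 and the Ccl5 to Ccl9 site), beside 75.5% of all such pairs. Each list share lay within the Wilson interval of the members' share. For the 3 control peaks without an overlapping RA peak, the values were scaled to the RA depth with the same relative IgG level. Their -log10 p would be 10.3 at Xcl1, 5.67 at Ccl5 and 6.81 at Ccl3, against a cutoff of 5, leaving counting noise aside. By the same scaling, 6306 of the 7207 control peaks without an overlapping RA peak (87.5%) would pass. These values are biased upward, because the peaks had been chosen for passing the control cutoff. The minimum length of a peak is left out as well. The part of the lower depth in the missing calls was not tested.

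The median fold was 5.77 in the control, from 2.96 to 11.5, beside 5.40 for all peaks, and 6.01 with RA, from 4.30 to 9.62, beside 5.29. Among intergenic peaks alone the list medians were 5.31 and 5.70. The members' intergenic peaks, without the Ccl4 promoter, had a median 1.09 times that value in the control and 1.22 times with RA.

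**Figure D4:**
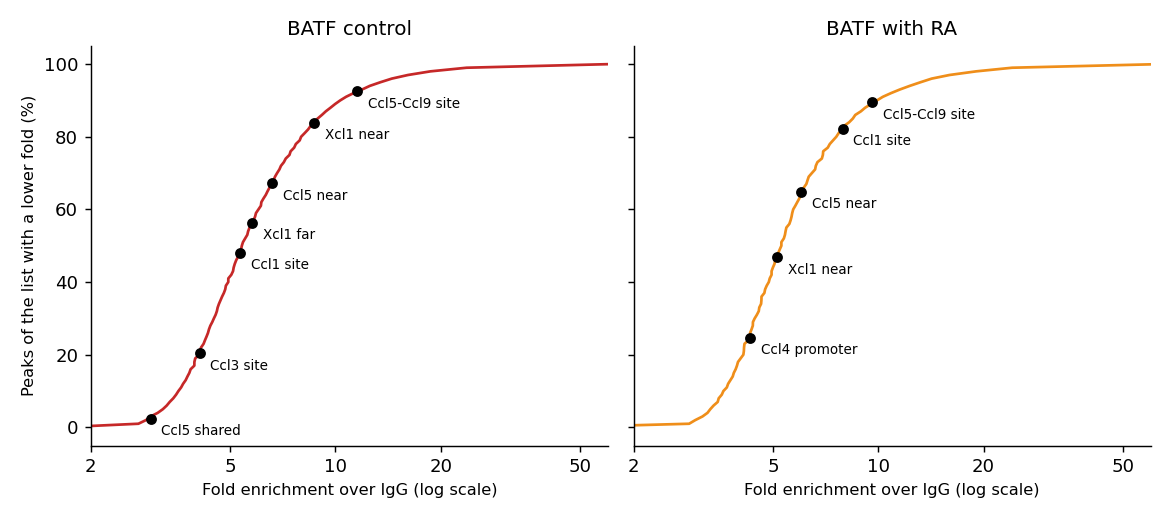
Percent of the peaks of each BATF list with a lower fold (y axis) against the fold enrichment over IgG (x axis, log scale), for the control (left) and RA (right). The curve is the whole list and the black points are the members' peaks, which run from 2.32% for the Ccl5 site shared with RARα to 92.5% for the Ccl5 to Ccl9 site in the control, and from 24.7% for the Ccl4 promoter to 89.5% with RA.

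Of 32 further chemokine genes of the CC, CXC and CX3C families, 8 were named by a BATF control peak and 6 by one with RA, where 46.2% and 36.4% of all protein-coding genes were. For 3 of them in each list (Ccl6, Ccl8 and Ccl12) the peaks were those of the members. The other 5 were Ccl22, Ccl25, Ccl28, Cxcl10 and Cx3cl1. Cxcl10, an interferon-induced ligand of CXCR3, had a promoter peak with a fold of 3.62 in the control and none with RA. Ccl25, the ligand of the gut-homing receptor CCR9, had 2 promoter peaks in the control, with folds of 5.63 and 3.72, and 1 with RA, with a fold of 5.72. Ccl22 and Cx3cl1 shared an intergenic peak with folds of 5.93 and 5.06, 40828 bp and 67324 bp from the genes in the control. Ccl28 had a peak in an exon in the control alone, with a fold of 5.22. A RARα control peak was assigned to Ccl26, at its promoter with a fold of 3.09, and to Ccl6 through the Ccl5 site, and none of the 32 had a RARα peak with RA, beside 6.85% and 3.05% of all protein-coding genes.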

How the data were processed

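ChIP-seq peak lists of RARα and BATF from CD8 T cells with or without RA were used, 1 list per condition. According to the methods and the file headers, the authors used Bowtie2 to align paired-end reads to mm10 and took out duplicates. MACS 2.2.7.1 compared 2 pooled files per list with 1 IgG file. RARα peaks were kept at a p-value cutoff of 0.001 and BATF peaks at 1e-05. The deposited pileup (a signal) counts fragments covering the summit, scaled by 0.988 per fragment in the BATF control list, and whole fragments were restored by dividing by this step. The deposited fold enrichment is a ratio, in which 1 is added to both pileup and local IgG level, from which the IgG level was recovered. Its background is the level expected for evenly spread IgG fragments. The deposited p-values and q-values are on the -log10 scale. Recomputing p from pileup and recovered IgG level gave the deposited value within 0.1 for at least 99.8% of peaks of each list.

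Members were matched to the deposited gene symbols, and every member peak was described. The other chemokine genes came from a list of 32, named where a list assigned them a peak. The members and lists were chosen with earlier results of these data known. Gene positions came from RefSeq for GRCm38.p6, the assembly of mm10. A gap is the distance between facing ends. Overlap meant at least 1 shared base, and shared meant within 5 kb, after the methods. Pairs were nearest midpoints. Intervals are exact Poisson or Wilson at 95% and cover counting error only. The Poisson intervals cover ChIP fragments and leave out the counting error of the IgG level. The Wilson intervals treat peaks or genes as independent, although several lie close together. The overlap and pairing steps, the recovery of the IgG level and the call limits were tested on simulated data. The Poisson and Wilson intervals were not. Sequence motifs were not analysed here, and chemokine receptor genes are not reported here. Computations used scipy 1.17.1, pandas 2.3.3 and numpy 2.4.6 under Python 3.11.15, with matplotlib 3.10.9 for plots.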

Additional observations from a re-analysis of the deposited data

How the results depend on the processing

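Of 41 values recomputed under an alternative, 36 did not move (within 1.5 times for counts, within the Wilson interval for shares), 4 moved and 1 changed direction. Some of the 36 could not have moved. A RARα count of 0 with RA cannot rise under a stricter filter or by merging. The BATF lists had been called at the p-value cutoff that an alternative applied. The Wilson interval of 48.7% to 97.4% is also wide. A fall in shared BATF control peaks from 85.7% within 5 kb to 57.1% by overlap thus counted as unmoved. The 36 are therefore no measure of robustness. No paired analysis was possible because each condition has a single list, called on pooled files. Limiting peaks to a fold enrichment of at least 5 left 0 RARα control peaks. It raised the share of BATF control peaks with a BATF peak with RA within 5 kb to 100% (5 of 5). Both control peaks of lower fold drop out, and of these the Ccl3 site had no peak with RA within 5 kb. The farther Xcl1 peak still counts only through the RA peak of its neighbouring site, 3274 bp away. Assigning peaks within 10 kb of the gene body in place of the annotation left 2 BATF control peaks and 2 BATF peaks with RA, since most of the sites lie farther away. The single RARα peak was below its list's median in fold (0.814 times) but above it in per-million pileup (2.23 times), at a site of raised IgG level. Of the 6 pairs within 5 kb, 4 had a lower fold with RA, and 3 (50.0%) without the constant of the peak caller. The farther Xcl1 peak and the Ccl5 peak shared with RARα were paired with the RA peak of a neighbouring site. Those RA peaks were therefore counted more than once. By overlap alone the fold was lower at 3 of 4. Leaving out peaks at 3 or more times the background IgG level, an alternative chosen after seeing the data like the call limits above, gave 5 of 6 control peaks with a peak with RA within 5 kb (83.3%). At the 4 sites found in only 1 BATF list, between 12 and 21 fragments were needed for a call in the other. All 4 would pass the cutoff when scaled to the depth of the other pool, counting noise aside. For the Ccl4 promoter, scaled to the deeper pool, this was fixed in advance.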

Other observations

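The gene names in the annotation depend on where a peak falls. The promoter peak named 1 gene, whereas the intergenic peaks of the members named between 2 and 8, and 77.3% of all intergenic BATF control peaks named several. Both Ccl5 sites nearest the gene lie inside a long noncoding RNA gene of the gene table, Gm32650, although the deposited annotation classed them as intergenic.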
